A study of Mus musculus with 4 samples.

Results

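The cytoplasmic ribosomal protein genes were examined in open chromatin maps of mouse heart nuclei, as genes that every cell type of the heart needs. The set holds 80 of 21755 annotated mouse protein-coding genes, not counting those on the Y chromosome or in mitochondrial DNA. Members were chosen by symbol: Rpl or Rps with a number and at most 1 letter, plus Rplp0, Rplp1, Rplp2 and Rpsa. This gave 49 genes of the large subunit and 31 of the small subunit, with the like-named paralogs Rpl3l, Rpl10l, Rpl39l and Rps27l among them. The rule uses no measured value.

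The ribosome is built of a large and a small subunit, each an RNA core that carries many proteins, and the proteins are needed in near equal amounts in every dividing and non-dividing cell. Their genes are among the most strongly transcribed of the genome, and their messenger RNAs open with a tract of pyrimidines, C or T in the gene, through which growth signalling sets translation. A few members have paralogs with a narrow pattern of use. Rpl3l replaces Rpl3 in the ribosomes of striated muscle, Rpl10l and Rpl39l are used in the male germ line in place of the X-linked genes Rpl10 and Rpl39, and Rps27l is a p53-responsive relative of Rps27.

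Both populations came from whole hearts of male NuTRAP/Cdh5-Cre mice on a C57BL/6 background, 8 to 12 weeks old and without further treatment in the labels. NuTRAP is a reporter that tags ribosomes, through the large-subunit protein encoded by Rpl10a, with GFP where Cre is active. The Cdh5 promoter, which is used by endothelial cells, drove the Cre, so that GFP also marks descendants of cells that once used it. GFP+ nuclei were the endothelial fraction, and GFP- nuclei were all others that passed the sort. The latter are a mixture of cardiomyocyte, fibroblast, mural and other nuclei rather than a cell type. Sorting kept single nuclei of diploid DNA content and, according to the paper, removed those with more. For ATAC-Seq, 100 to 50000 nuclei were processed, with 2.5 µL of Tn5 per 50000 nuclei in the labels. ATAC-Seq reads the places where the Tn5 transposase can insert into open DNA. In such bulk samples, more nuclei of a type and more open DNA per nucleus cannot be told apart.

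Each population had 2 replicates but 1 deposited peak list, called from both replicates together, so that no spread between replicates could be had and no test was made. There were 78912 peaks in GFP- (median 469 bp long), and 65008 in GFP+ (median 459 bp long). Each peak carries an area, its signal summed over its length, and was ranked by area within its own list from 0, the smallest, to 100. The lists separated the labelled populations at marker genes: endothelial markers had a start peak at 6 of 10 genes in GFP- and 10 of 10 in GFP+, and fibroblast markers at 7 of 8 and 3 of 8. Cardiomyocyte markers had one at 8 of 8 genes in both lists, with a median rank of 99.6 in GFP- and 94.6 in GFP+. Leukocyte markers had one at 1 of 6 genes in each list. What part any of this mixture had in the values below was not tested.

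To show the letters at member starts, stretches of 20 bases before to 20 after a transcript start were read from RefSeq (GRCm38.p6, 5′ to 3′ on the strand of the gene). The promoter table used held 60 of the 80 members. Of the 72 starts listed for the 60 genes, 31 had an unbroken run of at least 8 C or T in this stretch, printed in capitals. No share over all genes is given at RefSeq starts, and the later count with all genes beside it uses another choice of start. The genes below with a run come from both subunits and include Rplp2 of the stalk, Rps10 and Rps24, which are mutated in some cases of Diamond-Blackfan anaemia, a failure of red cell formation, and Rpl4 and Rps25, which are taken up later for their peaks.
Rpl4, chr9:64173367-64173407 (plus strand): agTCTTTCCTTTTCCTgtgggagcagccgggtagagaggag
Rpl7a, chr2:26910787-26910827 (plus strand): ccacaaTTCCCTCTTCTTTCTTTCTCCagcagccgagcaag
Rpl15, chr14:18270966-18271006 (minus strand): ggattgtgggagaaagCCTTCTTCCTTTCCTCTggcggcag
Rpl27a, chr7:109519175-109519215 (plus strand): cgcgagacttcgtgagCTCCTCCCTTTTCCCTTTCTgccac
Rpl34, chr3:130730317-130730357 (minus strand): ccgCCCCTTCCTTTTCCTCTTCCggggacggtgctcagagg
Rplp2, chr7:141447631-141447671 (plus strand): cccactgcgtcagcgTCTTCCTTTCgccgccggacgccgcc
Rps10, chr17:27635224-27635264 (minus strand): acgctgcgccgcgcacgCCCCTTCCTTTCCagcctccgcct
Rps24, chr14:24490658-24490698 (plus strand): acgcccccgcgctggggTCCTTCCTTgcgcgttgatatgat
Rps25, chr9:44407694-44407734 (plus strand): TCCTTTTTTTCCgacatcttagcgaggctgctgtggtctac
Rps27l, chr9:66946066-66946106 (plus strand): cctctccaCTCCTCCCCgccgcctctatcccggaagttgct

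Other members had no run of that length at their RefSeq start. Among them are Rpsa, a reference gene of the study's ATAC-qPCR, Rps4x and Rpl6, which had the weakest start peaks beside Rpl4, and Rpl41 and Rps19, which had some of the largest. Rpsa did have a run at another annotated start, the one nearest its summit. Rpl41 and Rps19 also had a run at another annotated coding start, though not at the one nearest the summit. Both listed starts of Rpl3l, the striated muscle paralog, are shown with them.
Rpsa, chr9:120127746-120127786 (plus strand): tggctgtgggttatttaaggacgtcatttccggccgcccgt
Rps4x, chrX:102189371-102189411 (minus strand): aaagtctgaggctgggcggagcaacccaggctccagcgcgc
Rpl6, chr5:121204481-121204521 (plus strand): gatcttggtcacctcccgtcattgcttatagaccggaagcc
Rpl41, chr10:128549148-128549188 (minus strand): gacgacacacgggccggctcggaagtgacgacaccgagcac
Rps19, chr7:24884572-24884612 (plus strand): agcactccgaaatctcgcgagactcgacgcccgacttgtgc
Rpl3l, the 5′-most start, chr17:24727806-24727846 (plus strand): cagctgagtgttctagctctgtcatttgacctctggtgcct
Rpl3l, the internal start, chr17:24732665-24732705 (plus strand): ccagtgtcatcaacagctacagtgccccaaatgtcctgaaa

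The run was then counted in the genome at the annotated coding start nearest the peak summit, in members and in all genes alike. It lay within 20 bases of that start in 36 of 77 members with a start peak (46.8%), against 14.9% of 13643 protein-coding genes with a start peak in either list. Counted at any annotated coding start, a setting added after the data were seen, it was found in 67.5% of members and 31.6% of all genes, with a median of 2 starts per gene in both. Rpl3l had no such run at the start nearest its summit, where its longest run was 4. The start nearest the summit is not always the RefSeq start. Of the genes printed above with a run, Rpl7a, Rpl15, Rpl27a and Rplp2 had none of that length at the start nearest the summit. These genes were counted among members without the run.

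Short words of transcription factors were searched on both strands from 250 bases before to 50 after the same start. The ETS word CCGGAAG was in 33.8% of members and 17.0% of all genes, and the YY1 word AAGATGG in 15.6% and 6.85%. The SP1 word GGGCGG, in contrast, was in 53.2% of members and 66.3% of all genes, and the muscle E-box CAGCTG in 5.19% and 15.5%. The NRF1 word GCGCATGC was in 3.90% and 5.03%, the GATA word AGATAA in 7.79% and 5.78%, TATAAA in 9.09% and 6.11%, and the MEF2 word in 3.90% and 1.77%. Between 40 and 16 bases before the start, where a TATA box would lie, TATAAA was in 0 of 77 members and in 0.909% of all genes. These words are matches of letters, some overlap each other or the run, and binding was not measured.

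**Figure D1:**
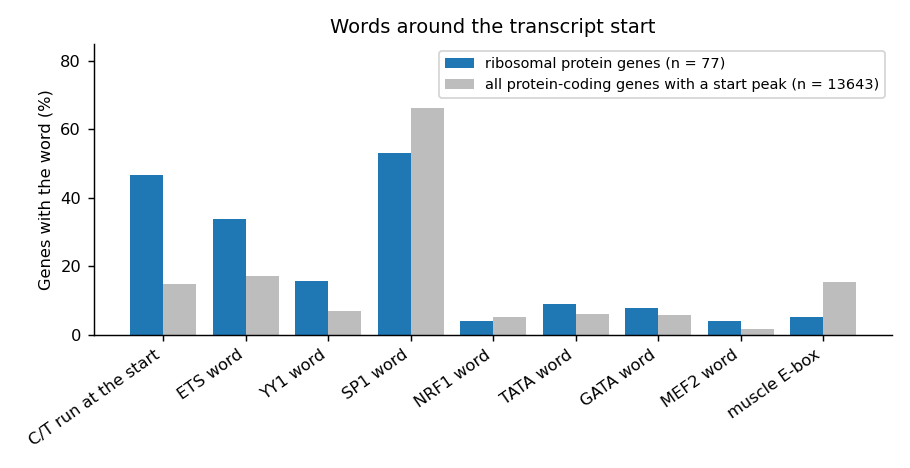
Share of genes (y axis, %) that hold each word (x axis) around the coding start nearest the peak summit, for 77 ribosomal protein genes (blue) and all 13643 protein-coding genes with a start peak (grey). The pyrimidine run is at 46.8% against 14.9% and the ETS word at 33.8% against 17.0%, while the SP1 word and the muscle E-box are less frequent among ribosomal protein genes.

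Words and peak sizes were set side by side for the members. The 36 genes with the pyrimidine run at the start nearest the summit had a median rank of 90.1 in GFP- and 89.0 in GFP+. The 41 without it there, some of which have a run at another start, had 93.1 and 92.1. The 26 genes with the ETS word had medians of 92.6 and 92.1, against 90.2 and 89.4 for the other 51. These medians were not tested.

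Within 250 bp of any annotated transcript start, 77 of 80 ribosomal protein genes had a peak in GFP- nuclei and the same 77 had a peak in GFP+ nuclei. This is 96.2% of members in each list (Wilson 95% interval 89.5 to 98.7%, counting error only). Over all protein-coding genes the share with a start peak was 61.8% in GFP- and 59.8% in GFP+, and 58.8% had a start peak in both lists. No member had a start peak in a single list. The 3 members without any were Rpl10l, Rpl39l and Rps25.

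The peaks were large in both populations. The median rank of the 77 members was 91.0 in GFP- (95% interval of the median over genes 89.998 to 93.1) and 90.1 in GFP+ (88.7 to 92.1). In GFP-, 74 members ranked at 80 or higher, where 76.6% of all genes with a start peak did. In GFP+, 75 members did, where 74.2% of all genes with a start peak did. At 90 or higher were 47 members in GFP- and 41 in GFP+, for which no share over all genes is given. All protein-coding genes with a start peak had medians of 90.5 and 89.3, so that members stood near the middle of start peaks and not above them. They were less spread: in GFP- the quartiles of members were at 88.0 and 94.6, and those of all genes at 81.1 and 95.8.

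The top and the bottom of the order held largely the same genes in both lists. Rpl7, a large-subunit protein, had the highest rank in both lists, 99.5 in GFP- and 99.6 in GFP+. Rps19, the small-subunit protein most often mutated in Diamond-Blackfan anaemia, followed with 99.4 and 99.3. The next places were taken by Rpl41 in GFP- (99.3) and by Rps29 in GFP+ (98.4). At the low end, Rps4x, the X-linked copy of a small-subunit gene, ranked at 77.2 in GFP- and 75.1 in GFP+, and Rpl6, of the large subunit, at 77.7 and 72.5. Rpl4, also of the large subunit, was lowest of all members in GFP- at 69.2. In its place Rpl36a, an X-linked large-subunit gene, was the third lowest in GFP+ at 81.4.

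**Figure D2:**
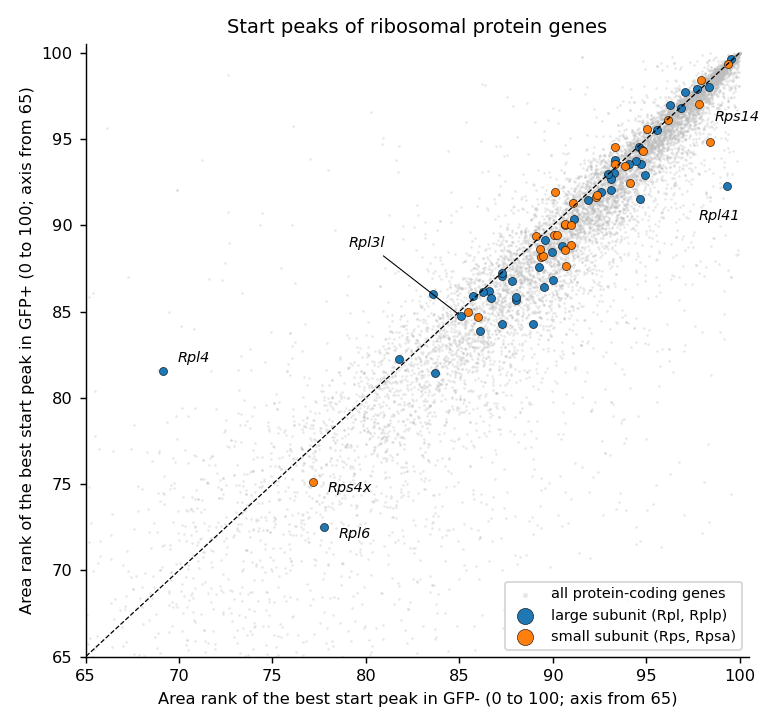
Area rank of the best start peak in GFP- (x axis) and GFP+ (y axis), both from 0 to 100 and drawn from 65 up, for ribosomal protein genes of the large (blue) and small (orange) subunit over all protein-coding genes (grey); the dashed line marks equal ranks. Members lie along the line between 69.2 and 99.6, with Rpl4 above it and Rpl41 below.

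The rank of a member was nearly the same in endothelial and non-endothelial nuclei. The median difference, GFP+ minus GFP-, was -0.569 rank points (95% interval of the median over genes -0.796 to -0.396), with quartiles at -1.66 and -0.063. Over all genes the median was -0.731 and the quartiles were at -2.75 and 0.101. The sign of this small median depended on the length of the lists: with the GFP- list cut to its 65008 largest peaks, it was 1.03 for members and 0.441 for all genes.

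Of the 77 members, 74 (96.1%) stayed within 5 rank points between the lists, against 80.1% of all genes, and 46 (59.7%) within 1 point, against 43.1%. More than 5 points lower in GFP+ were 2 members, Rpl41 and Rpl6, where 15.3% of all genes were. More than 5 points higher was 1 member, Rpl4, where 4.58% of all genes were. The same count was made by mean rank over both lists. Between 80 and 90, all 33 members and 84.2% of all genes stayed within 5 points. Between 90 and 95, all 27 members and 94.4% of all genes did, and above 95 it was 13 of 14 members and 99.2%. Under 80 it was 1 of 3 members and 38.0%. Ranked by area per bp in place of area, 13 members were lower and 12 higher by more than 5 points, against 31.8% and 15.4% of all genes.

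**Figure D3:**
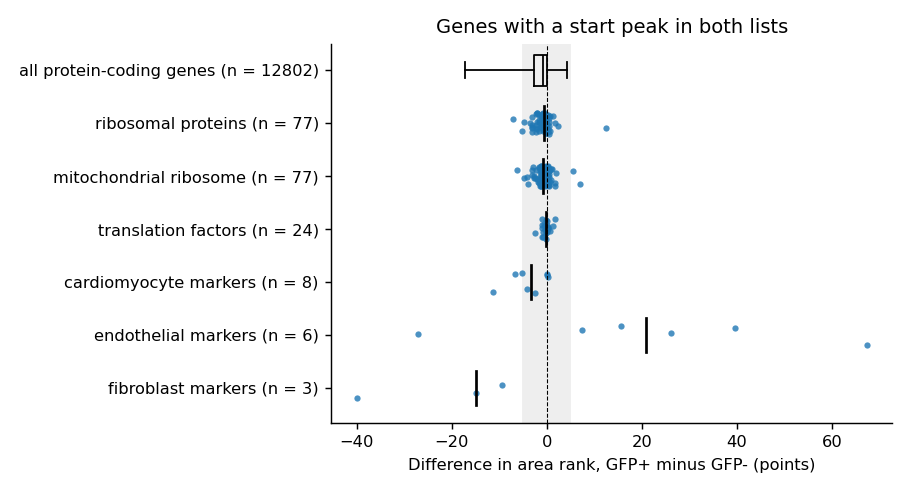
Difference in area rank between the lists (x axis, GFP+ minus GFP-, in points) for genes with a start peak in both lists; points are genes, thick lines are medians, and the box for all genes shows the median and quartiles with whiskers at the 5th and 95th percentiles. Ribosomal protein genes cluster near 0 inside the grey band of 5 points either way, with Rpl4 at 12.4, Rpl41 at -7.02 and, close to its edge, Rpl6 outside it.

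The largest rise was that of Rpl4, from 69.2 in GFP- to 81.6 in GFP+ (12.4 points). The peak was called in pieces in GFP- nuclei: there, peaks of 532 bp (chr9:64172640-64173171, mm10) and 525 bp (chr9:64173278-64173802), with ranks of 69.2 and 60.7, lay where GFP+ nuclei had a single peak of 1098 bp (chr9:64172651-64173748). The rank follows the larger peak of a gene only, and with the areas of all start peaks summed, a setting added after the data were seen, no member rose by more than 5 points. In GFP- the larger peak ended short of the Rpl4 start, with its summit 456 bp before it, and the smaller one covered the start. The divergent gene Zwilch starts 271 bp away. Rises after Rpl4 were small. Rpl8 rose by 2.45 points, Rps7 by 1.80, Rps12 by 1.23 and Rpl37 by 0.71, all of them core proteins of the ribosome.

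The largest fall was that of Rpl41, which encodes a very short and basic large-subunit peptide, from 99.3 to 92.3. Here GFP- nuclei had a single peak of 3676 bp (chr10:128546070-128549745) that also took in the start region of the neighbouring gene Zc3h10. In GFP+ nuclei the same stretch held 3 peaks, of 539, 1164 and 1198 bp, and the last of them (chr10:128548351-128549548), with a rank of 92.3, covered the Rpl41 start. The summit of the start peak differed by 1 bp between the lists. Rpl6 fell by 5.24 points, from 77.7 to 72.5, with a peak of similar length in both lists, 950 bp and 1005 bp. Rpl23a, which lies at the exit of the peptide tunnel, fell by 4.66 points, Rps14 by 3.58 and Rpl14 by 3.16.

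For Rps14, a small-subunit protein, the best peak was the longest of all members, 4920 bp in GFP- and 3848 bp in GFP+. It lay at the gene's upstream starts, next to the gene Ndst1, and its summits were 1537 bp apart. At another cluster of Rps14 starts, both lists had a compact peak, of 1105 bp with a rank of 93.1 in GFP- and of 1063 bp with a rank of 91.5 in GFP+. Its summit was the same in both lists and lay 27526 bp from the gene's first annotated start. The other values given for Rps14, words and CpG among them, belong to the upstream starts.

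Rpl10a encodes the protein that carries the GFP tag in these mice. It was singled out for this after the values were seen. Its start peak ranked at 94.7 in GFP- and 91.5 in GFP+, and was 1717 bp and 1344 bp long.

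Peaks at member starts were of moderate length. The median was 1172 bp in GFP- and 1098 bp in GFP+, against 1239 and 1168 bp over all genes. In each list 74 of 77 members had a peak of 500 to 2000 bp, a count for which no share over all genes is given. After Rps14, the longest were those of Rpl41 (3676 bp) and Rpl7 (2585 bp) in GFP-, and that of Rpl7 (2738 bp) in GFP+. The shortest were those of Rpl4 (532 bp), Rps4x (618 bp) and Rpl35a (797 bp) in GFP-, and of Rps4x (591 bp), Rpl14 (693 bp) and Rpl39 (790 bp) in GFP+.

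From the GFP- to the GFP+ list a member's peak changed length by a median factor of 0.962 (95% interval over genes 0.888 to 0.994), against 0.945 for all genes. By more than 1.5-fold, 5 members were shorter in GFP+, where 11.4% of all genes were, and 1 was longer, where 3.34% were. The shorter ones were Rpl41, with a length ratio of 0.326, and Rpl18, Rpl36, Rpl27 and Rpl24, with ratios of 0.601 to 0.663. The longer one was Rpl4, with 2.06.

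Peak positions were also close. All 77 pairs of peaks overlapped, by a median of 85.4% of the stretch that either covered (83.6% over all genes), and the summits were a median of 5 bp apart (10 bp over all genes). At 48 members, 62.3%, the summits lay within 10 bp of each other, against 50.2% of all genes, and at 13 members they fell on the same base. At 6 members they were over 100 bp apart, among them Rps14, Rplp2 (281 bp) and Rpl19 (273 bp). The summit was within 100 bp of an annotated start at 87.0% of members in GFP- and 81.8% in GFP+, against 68.9% and 69.2% of all genes. The peak reached a median of 542 bp before and 667 bp after the start in GFP-, and 521 and 595 bp in GFP+.

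**Figure D4:**
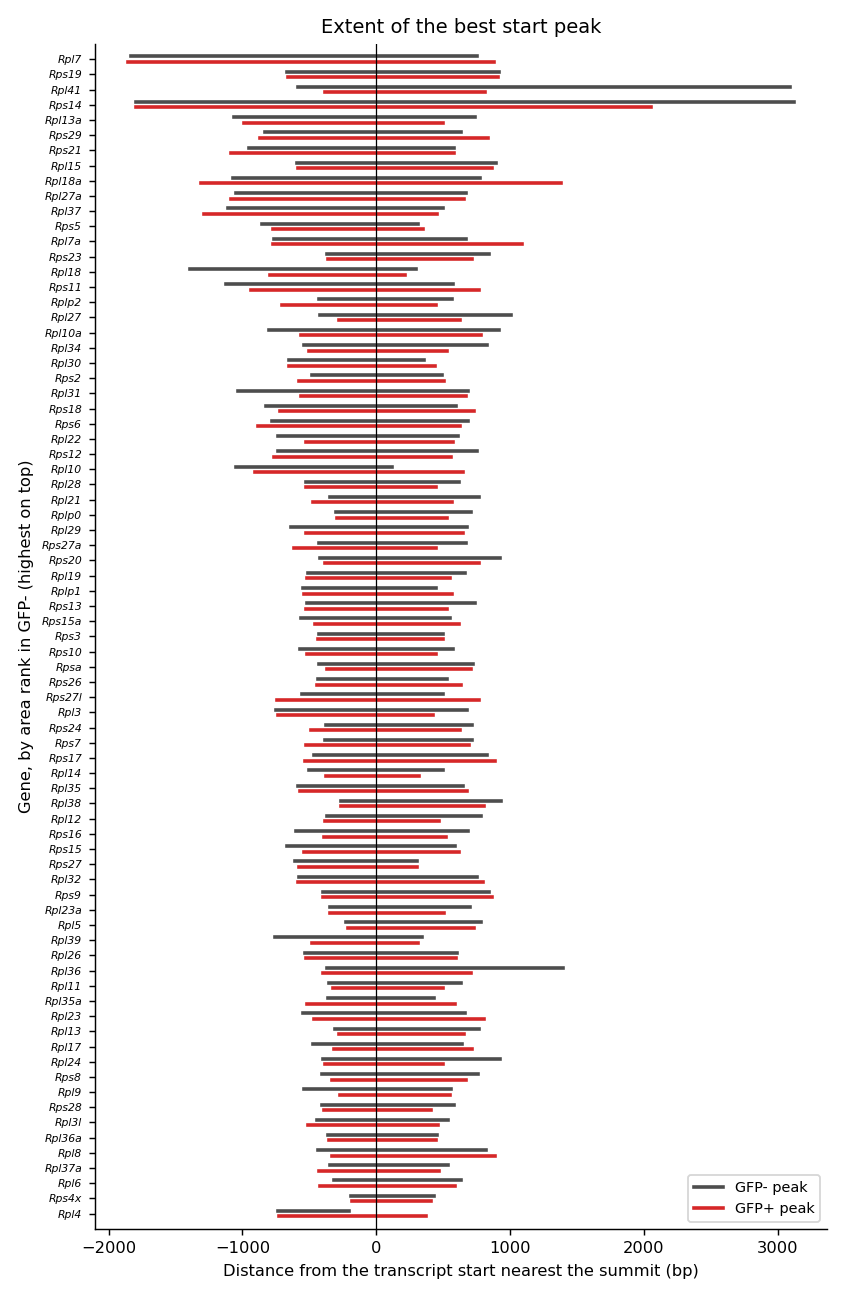
Extent of the best start peak of 77 ribosomal protein genes in GFP- (grey) and GFP+ (red), as distance in bp from the transcript start nearest the summit (x axis), with genes in order of rank in GFP-. Most bars are of near equal length in both lists and span the start, and the long bars of Rpl41 and Rps14 and the short GFP- bar of Rpl4 stand apart.

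The subunits gave like values. The 47 large-subunit genes with a peak had median ranks of 90.5 in GFP- and 89.1 in GFP+ with a median difference of -0.462, and 44 of them stayed within 5 points. The 30 small-subunit genes had medians of 91.0 and 90.7 with a median difference of -0.614, and all 30 stayed within 5 points.

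The acidic stalk, which recruits elongation factors to the ribosome, is made of the products of Rplp0, Rplp1 and Rplp2. Rplp0, the base of the stalk, ranked at 93.0 in both lists. Rplp1 ranked at 91.1 in GFP- and 90.4 in GFP+, and Rplp2 at 94.8 and 94.4. All 3 thus stayed within 1 point.

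Rpsa, a small-subunit protein also known as the laminin receptor, served with Tbp as a reference in the ATAC-qPCR of the study. Its start peak was 1154 bp with a rank of 90.7 in GFP- and 1076 bp with a rank of 88.6 in GFP+, a difference of -2.10 points. Tbp, which encodes the TATA-binding protein, ranked at 88.7 and 88.0. In the word counts, made at the start nearest its summit, Rpsa had the ETS word and no SP1 word. The promoter of Rpsa at its RefSeq start, which is another, reads as follows, with an SP1 word on the minus strand in capitals.
Rpsa, chr9:120127616-120127785 (plus strand): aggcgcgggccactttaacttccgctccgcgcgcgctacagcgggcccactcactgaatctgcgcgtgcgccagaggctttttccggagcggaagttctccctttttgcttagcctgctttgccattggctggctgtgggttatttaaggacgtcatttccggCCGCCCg

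Mutations in 9 members on the Diamond-Blackfan list, among them Rps7, Rps10, Rps19, Rpl5 and Rpl11, cause that anaemia. All 9 had start peaks in both lists and stayed within 5 points, with differences from -3.04 for Rps10 to 1.80 for Rps7. Small nucleolar RNA genes, which guide the modification of ribosomal RNA, lie in introns of 29 members. The 29 hosts had a median difference of -0.621, and the 48 other members with a peak -0.563. A start window shared with another gene was found at 15 members, 14 of which had a peak, with a median difference of -0.623.

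The 4 X-linked members (Rpl10, Rpl36a, Rpl39 and Rps4x) had lower ranks, with medians of 85.8 in GFP- and 83.6 in GFP+, and all 4 were lower in GFP+ with a median difference of -2.14 points. The same held for X-linked genes at large: 365 of them with a start peak in both lists had medians of 83.7 and 80.2 and a median difference of -2.29. Both populations came from male mice, and thus alike have a single X chromosome. What part this had in the ranks was not tested.

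The paralogs were compared with the genes they are named after. Rpl3l has a narrow pattern of use, in striated muscle, where it replaces Rpl3. It had a start peak in endothelial as well as in non-endothelial nuclei. Its best peak was 981 bp long with a rank of 85.1 in GFP- (chr17:24732241-24733221, mm10) and 975 bp long with a rank of 84.7 in GFP+ (chr17:24732176-24733150), with the summit on the same base in both. The difference of -0.341 was smaller in size than that of most members, in place 18 of 77 when counted from the smallest. Neither its sign nor this place held with the GFP- list cut to the length of the GFP+ list: the GFP- rank was then 81.9 and the difference 2.85, in place 69 of 77.

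This peak did not lie at the 5′ end of the gene. Rpl3l (chr17:24727820-24736143, plus strand) has 3 annotated starts, and the best peak lay at the internal start, 4865 bp inside the gene. The peak at the 5′ end was 1249 bp long with a rank of 74.6 in GFP-, and 1163 bp with a rank of 73.6 in GFP+. These ranks were above the best peak of Rpl4 alone in GFP- and of Rpl6 alone in GFP+. The 5′ start is the principal one of the annotation. At both starts the lists gave ranks close to each other. Among the 77 members, its best peak was in place 7 from the lowest by rank in GFP- and place 10 in GFP+, and by length in places 11 and 21.

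The stretch upstream of Rpl3l shows the contrast with an ordinary member. Rps2, a small-subunit gene, ends 5890 bp before Rpl3l begins, and its start peak ranked at 94.1 in GFP- and 92.5 in GFP+. Between them, the start of Ndufb10, a gene of mitochondrial complex I, had a peak at 87.1 in GFP- and 84.7 in GFP+. All major peaks of the stretch were present in both lists, and the peak that spans the end of Rpl3l and the start of Msrb1 was split in GFP+.

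**Figure D5:**
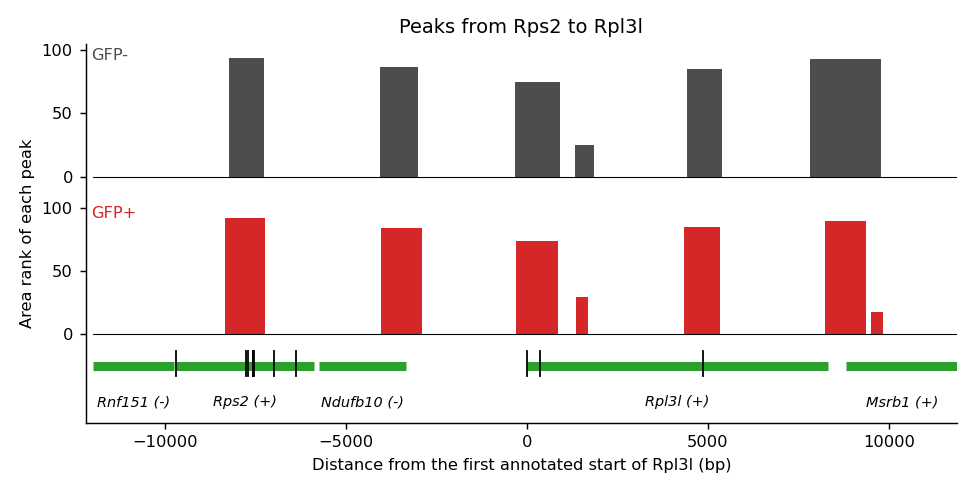
Peaks of the GFP- (grey) and GFP+ (red) lists from Rps2 to Rpl3l, drawn to scale by distance in bp from the first annotated start of Rpl3l (x axis), with the area rank of each peak as height (y axis, 0 to 100 in each panel). Green bars are genes with their strand and black ticks are annotated starts of Rps2 and Rpl3l; the peak at the internal Rpl3l start reaches 85.1 and 84.7, above 74.6 and 73.6 at the 5′ end.

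The promoters of Rpl3l and Rps2 differ in their letters. Neither of the muscle words of Rpl3l is particular to it. Among members, the MEF2 word was also in Rpl17 and Rpl23a, and the muscle E-box was in Rpl6, Rplp1, Rplp2 and Rps14. In the counts, made at its internal start, Rpl3l had the MEF2 word and no E-box. Capitals mark a muscle E-box at the 5′-most start of Rpl3l and a MEF2 word at the internal start, MEF2 and the E-box factors being known regulators of muscle genes. In Rps2 they mark a TATAAA word, an ETS word (both on the minus strand) and an SP1 word.
Rpl3l, the 5′-most start, chr17:24727676-24727845 (plus strand): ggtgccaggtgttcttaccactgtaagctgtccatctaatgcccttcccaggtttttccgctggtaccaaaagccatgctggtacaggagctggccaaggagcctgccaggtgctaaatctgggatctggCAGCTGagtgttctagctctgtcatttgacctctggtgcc
Rpl3l, the internal start, chr17:24732535-24732704 (plus strand): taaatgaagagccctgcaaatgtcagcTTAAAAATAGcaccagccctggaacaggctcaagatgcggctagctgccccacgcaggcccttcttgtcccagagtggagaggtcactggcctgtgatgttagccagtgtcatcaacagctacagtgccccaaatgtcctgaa
Rps2, chr17:24719913-24720082 (plus strand): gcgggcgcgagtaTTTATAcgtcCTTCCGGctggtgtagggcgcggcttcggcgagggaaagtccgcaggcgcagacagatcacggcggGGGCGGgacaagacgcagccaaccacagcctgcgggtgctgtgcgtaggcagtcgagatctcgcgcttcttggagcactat

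CpG dinucleotides, which are frequent in promoters of genes used in every cell, were scarce at Rpl3l. The observed over expected ratio of CpG was 0.134 around its internal start, the lowest of all 77 members, and 0.089 around the 5′ start. The next lowest member was Rps14 with 0.145, at the upstream start used for its long peak. The median of members was 0.836 and that of all genes 0.767. The GC content of Rpl3l, 55.7%, was near the median of members (56.3%), and all genes had a median of 61.7%.

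Rpl3, the gene of the ubiquitous protein that lies near the catalytic centre of the ribosome, had a best peak of 1430 bp with a rank of 90.5 in GFP- and of 1161 bp with a rank of 88.8 in GFP+. By the best peak it thus ranked above Rpl3l in both lists. The Rpl3 annotation also has a start far upstream, the 5′ end of its gene record, where the peak ranked at 69.5 in GFP- and 64.7 in GFP+, below the peak at the 5′ end of Rpl3l.

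Rps27l had values close to those of its relative. Its start peak ranked at 90.7 in GFP- and 90.1 in GFP+, and that of Rps27 at 89.3 and 88.7. The testis-used paralogs did not. Rpl10l and Rpl39l had no start peak in either list, and no peak elsewhere in the gene. The closest peak to Rpl10l was 711414 bp away in GFP- and 246752 bp in GFP+, and the closest to Rpl39l 17791 and 17638 bp. The X-linked genes they are named after, Rpl10 and Rpl39, had start peaks of rank 93.2 and 88.0 in GFP- and of 93.0 and 85.7 in GFP+. The promoter of Rpl39l holds a pair of ETS words, in capitals.
Rpl39l, chr16:10170078-10170247 (plus strand): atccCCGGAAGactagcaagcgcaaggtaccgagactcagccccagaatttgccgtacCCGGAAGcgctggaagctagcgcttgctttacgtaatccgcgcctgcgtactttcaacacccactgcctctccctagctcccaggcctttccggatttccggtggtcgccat

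Rps25, a small-subunit protein of the ribosome head, was the single member in general use without a start peak, and the cause was not tested. Whether the place lies in a region that the authors left out of peak calling was not tested either. It lies in a stretch of 112 kb without any peak, which begins at the same base of chromosome 9 in both lists (44305701) and ends at 44417497 in GFP- and 44417409 in GFP+. The stretch holds 9 protein-coding genes, among them H2afx, of DNA repair, and Hyou1, a chaperone, and no start of any of them had a peak. Stretches of at least 100 kb without a peak numbered 4211 in GFP- and 4540 in GFP+, and 218 and 227 of these held 5 or more protein-coding genes. The promoter of Rps25 holds an ETS word, in capitals, and the pyrimidine run shown earlier lies just before its start.
Rps25, chr9:44407564-44407733 (plus strand): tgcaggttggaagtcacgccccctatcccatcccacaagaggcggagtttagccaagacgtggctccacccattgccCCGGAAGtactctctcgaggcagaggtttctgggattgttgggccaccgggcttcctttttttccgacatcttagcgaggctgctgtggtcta

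Pseudogenes of members, mostly copies without the promoter of the parent gene, seldom had a peak. Of 288 annotated pseudogenes named after a member, 4 (1.39%) had a peak at a start in GFP- and 3 (1.04%) in GFP+. These were Rpl29-ps2, Rpl36-ps1 and Rps19-ps10 in both lists, with GFP- ranks of 82.1, 42.9 and 34.1, and Rpl21-ps7 in GFP- alone, with a rank of 71.7. Reads of low mapping quality had been filtered out before peaks were called.

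Ribosomal genes that the symbol rule leaves out gave like values. Of these genes, among them Fau, Rack1, Rpl22l1 and Rpl36al, 7 of 8 had start peaks in both lists and stayed within 5 points, with median ranks of 91.7 in GFP- and 89.97 in GFP+. The exception, without a peak in either list, was Rps27rt. Among 12 common reference genes, 11 had start peaks in both lists, and 10 stayed within 5 points. The one beyond 5 points was Gusb, a lysosomal enzyme, which fell by 7.26 points. For comparison, of 10 endothelial markers 4 had a start peak in GFP+ alone, and of the 6 with one in both lists 5 were higher in GFP+. The differences ran from -27.0 points for Tek, a receptor of angiopoietins that ranked at 81.1 in GFP- and 54.1 in GFP+, to 67.4 for Cdh5, the endothelial cadherin, at 18.0 and 85.3. Of 8 fibroblast markers 4 had a start peak in GFP- alone, and all 3 with one in both lists were lower in GFP+, the farthest being Col6a2, a collagen, at 88.7 and 48.8.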

How the data were processed

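ATAC-Seq had been performed on 2 replicates each of GFP- and GFP+ heart nuclei. Reads were trimmed with fastp, mapped to mm10 with bowtie2 allowing long inserts, filtered for mapping quality with samtools, cleared of duplicates with Picard, brought to a common read number and passed to Genrich in ATAC mode without mitochondrial, Y-linked and blacklisted regions. The submitters' processing notes name Bowtie2 2.3.5.1, SAMtools 1.19 and CASAVA 1.4. The authors deposited 1 narrowPeak list for GFP- and 1 for GFP+, each a joint call on its 2 replicates. The deposited signal is the area of a peak, the deposited −log10 p-value belongs to its summit, and the deposited score is a scaled area per bp limited by the authors' caller. The q-value field is unused. The common read number was set before mitochondrial reads were left out, so that the reads used for calling may still differ between the lists. What set the length of each list was not tested. Read counts are not analysed here.

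Peaks were ranked by area from 0 to 100 within each list (Python 3.11.15, pandas 2.3.3, numpy 2.4.6). For each protein-coding gene of the GENCODE M21 annotation, the peak with the largest area within 250 bp of any annotated transcript start was taken. Differences over 5 rank points and length changes over 1.5-fold were counted, with the same counts over all protein-coding genes beside them. Intervals of medians are order-statistic intervals over genes and do not measure the spread between animals. Words were searched with pysam 0.24.0 in the genome of the same build, and 72 of 72 promoter rows used equalled it. The scripts were tested on simulated data. Members and lists were chosen with earlier results of these data known. Genes named in the text are Rpl3l, Rpl3, Rpsa, the stalk genes, the paralogs, members without a start peak, the 5 largest rises and falls, the 3 longest and shortest peaks and the 3 highest and lowest ranks in each list, and examples of each subgroup. Some genes that this rule names are not reported here.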

Additional observations from a re-analysis of the deposited data

How the results depend on the processing

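Of 174 values under 16 alternative settings, 155 kept their direction and stayed within their limits, and 3 of the settings were chosen after seeing the data. The limits were the 95% interval for medians, 5 points for Rpl3l and 1.5-fold for counts. A change from 36 to 52 members with the pyrimidine run thus counted as kept. Giving rank 0 to a missing peak, or keeping only peaks above each list's median area, could not move a value. No member had a peak in a single list, and all their best peaks lay above that median. The number of members with a start peak, the median lengths and the length ratio moved beyond their limits under none of the settings run. With the GFP- list cut to the length of the GFP+ list, the GFP- median rank was 89.0, the median difference reversed to 1.03 and that of Rpl3l to 2.85, and 1 member was lower and 2 were higher by more than 5 points. Ranked by area per bp, the median difference was -1.13, with 13 members lower and 12 higher, against 31.8% and 15.4% of all genes. Ranked by summit p, the median ranks were 94.96 and 93.8. A window of 1000 bp left 1 member lower, and with the summit required in the window, or with summed areas (added), 0 were higher. Rpl3l ranked at 74.6 and 73.6 by the 5′ end of its gene record and by principal starts (added), and at 91.8 and 91.6 by summed areas.

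No paired analysis was possible because each population has a single list called from both replicates, and leaving out a replicate could not be done either. The lists carry no read counts, so that a member without a peak is not shown to be closed. At Rpl4 and Rpl41, the members with the largest rise and fall, neighbouring peaks were split or joined differently in the lists. With the areas of all start peaks summed, no member rose by more than 5 points, but 2 members still fell by more than 5. At Rpl41 the other pieces in GFP+ lay outside the start window and were not summed. What part splitting or joining had in the ranks was not tested.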

Other observations

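Genes that work beside the cytoplasmic ribosome gave a similar picture. The mitochondrial ribosome has its own proteins, encoded in the nucleus, and 77 of 78 of these genes had a start peak in both lists, Mrpl43 being the exception. Their median rank was 88.7 in GFP- and 87.9 in GFP+, with a median difference of -0.739, and 74 of 77 stayed within 5 points. Mrps18a rose by 7.09 points, from 67.8 to 74.9, Mrps10 rose by 5.51 points, and Mrpl24 fell by 6.17, from 84.1 to 78.0. The highest rank was that of Mrps18b, 99.8 in GFP-, followed by Mrpl34 with 99.6.

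Translation factors had larger start peaks. Of 25 genes, 24 had one in both lists, with a median rank of 97.0 in each and a median length of 1838 bp in GFP- and 1744 bp in GFP+, and all 24 stayed within 5 points. Eif4a1, the helicase of initiation, ranked at 99.4 in both lists, and Pabpc1, the poly(A)-binding protein, at 99.5 and 99.4. The lowest difference was that of Eef1a2, the elongation factor form of muscle and nerve, at -2.49 points, with ranks of 91.7 in GFP- and 89.2 in GFP+, while Eef1a1, the common form, ranked at 97.1 and 96.2. Eef2 had no start peak in either list. These groups were not tested against each other.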
